A study of Mus musculus with 6 samples.

Results

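Cytosolic heat shock genes were followed in mouse hepatocytes with and without the transcription factor FOXA2. The set held 10 genes chosen by name out of the 34745 genes of the deposited tables by a rule that set no threshold on a measured value. The members were Hsf1, Hspa1a, Hspa1b, Hspa8, Hsph1, Hspb1, Dnajb1, Dnaja1, Hsp90aa1 and Hspd1. All 10 were found in the tables and all 10 passed the filter on low counts. Hspd1 does not match the name of the set, because its protein is the chaperonin of the mitochondrial matrix and is not a cytosolic chaperone.

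RNA-seq was performed on primary hepatocytes of 12-week-old male mice whose Foxa2 alleles were flanked by loxP sites. AAV8-TBG-Control was given to the control group, FOXA2f/f. The deletion group, FOXA2H-KO, was given AAV8-TBG-Cre, where the hepatocyte promoter TBG drives Cre from an adeno-associated vector. Both groups carried the floxed alleles and had their virus 2 weeks ahead of carbon tetrachloride (CCl4), whose dose of 0.25 ml/kg was repeated over 4 weeks with 2 injections in each. Hepatocytes were taken on the third day after the final dose, so every library came from a liver with toxin-induced fibrosis and no library came from an animal without CCl4. Each group had 3 libraries, labelled replicates 1, 2 and 4, and since the labels do not say that each library was a separate animal, the p-values describe the spread between these libraries.

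Heat shock proteins are chaperones that keep other proteins folded. When unfolded proteins accumulate, the transcription factor HSF1 is released from chaperones, forms trimers and binds heat shock elements, which are inverted repeats of the unit GAA, in front of chaperone genes. The inducible members HSPA1A and HSPA1B then rise from low resting levels, whereas HSPA8 is made in unstressed cells as well, and in the liver these chaperones are known to respond to heat, oxidants and toxins.

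The total count per library lay between 20983455 and 28327765. Foxa2 checked the labels, with counts of 442, 246 and 516 in FOXA2f/f replicates 1, 2 and 4 and of 28, 19 and 35 in FOXA2H-KO replicates 1, 2 and 4. It was lower in FOXA2H-KO by a log2 fold change of −3.85 (SE 0.31, adjusted p = 0.0313 in the edgeR quasi-likelihood test), and it was the 1 gene of 14417 tested that was called at an adjusted p under 0.05 with at least a 2-fold change. Hepatocyte markers made up a summed 114015 to 163638 CPM (counts scaled to library size with TMM factors), and no listed marker of hepatocytes or of the other liver cell types was at 0 in all libraries. FOXA2f/f replicate 2 stood apart from the rest, with 15 of 16 immediate early genes, 10 of 10 macrophage markers and 9 of 10 endothelial markers at their lowest there. Over all genes tested it was the lowest library for 29.2% and the highest for 29.7%. The counts and medians of the gene lists are therefore also given without FOXA2f/f replicate 2.

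None of the 10 heat shock genes was called between FOXA2H-KO and FOXA2f/f. The background share of called genes was 0.00694% of all genes with the quasi-likelihood test, 0.457% with DESeq2 and 0.444% with the edgeR exact test, and 0 members were called by any of these. At an unadjusted p under 0.05, 1 member (Hspb1, higher in FOXA2H-KO) passed, beside 5.17% of all genes. Hspb1 was also the 1 member whose groups did not overlap, beside 10.5% of all genes. The median log2 fold change of the 10 members was −0.16, beside −0.012 over all genes tested, with 8 members below 0 and 2 above, and 52.2% of all genes lay below 0. The lean below 0 was weak and its size depended on the control libraries used. Without FOXA2f/f replicate 1 the median of the members was −0.28. Without FOXA2f/f replicate 2 it was −0.0038, with 5 members on each side of 0, beside −0.01 over all genes. With library size alone it was −0.06, but the median of all genes tested moved as well, to 0.104, so the members still lay below all genes. With the authors' FPKM it was −0.02 or −0.03, for which no median of all genes is given here.

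**Figure D1:**
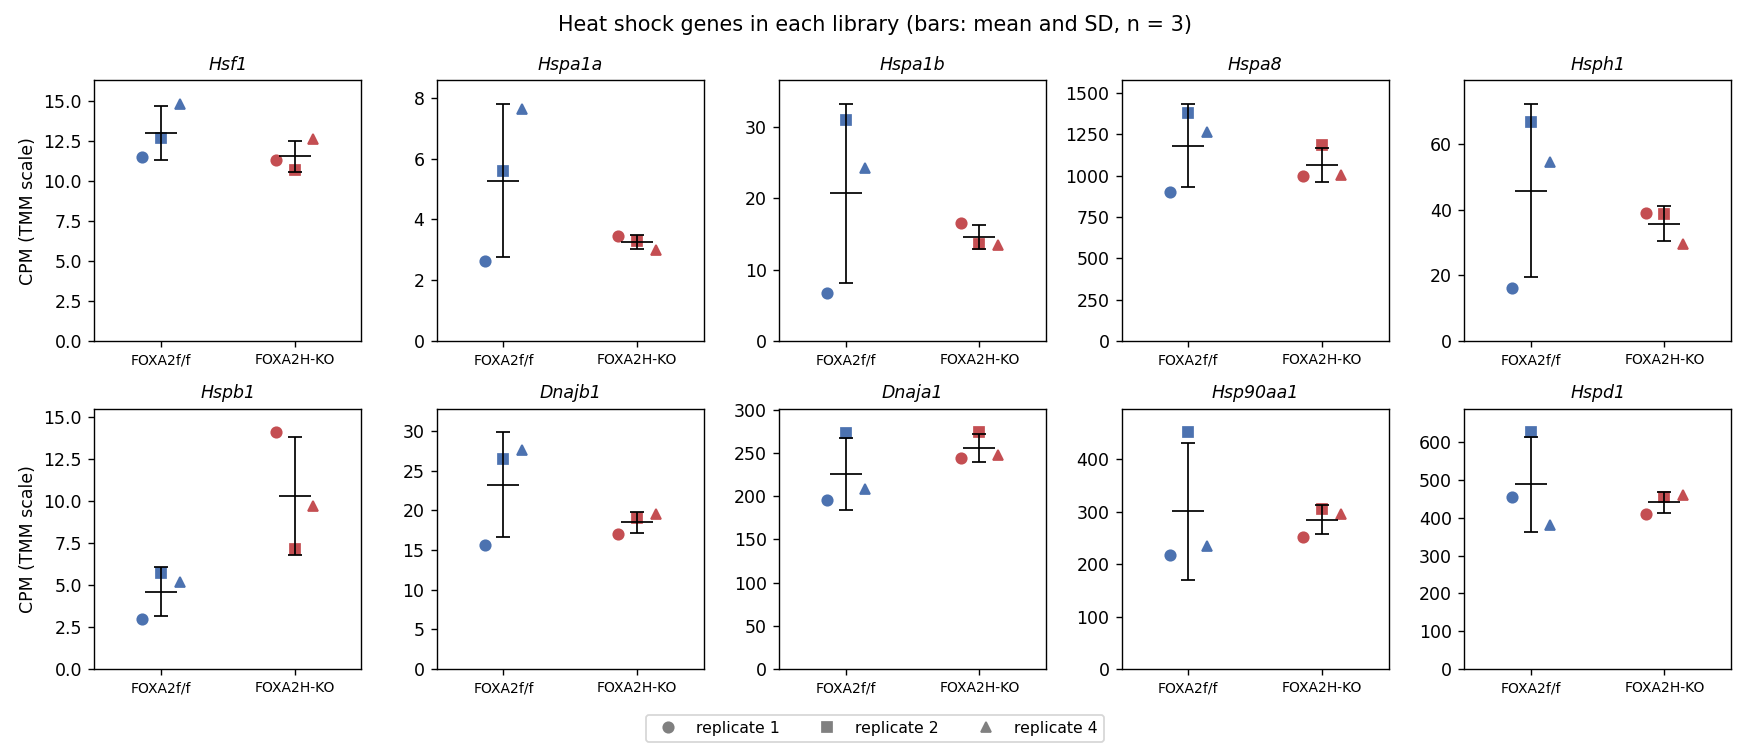
CPM on the TMM scale (vertical axis, linear and starting at 0) of the 10 heat shock genes in the 3 FOXA2f/f libraries (blue) and the 3 FOXA2H-KO libraries (red), with the mean and SD in black and the replicate number given by the symbol. Hspb1 alone has non-overlapping groups, and Hspa1b, Hsph1 and Hspa1a are spread far more widely among the FOXA2f/f libraries than among the FOXA2H-KO libraries.

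In levels per length, given as CPM per kilobase of the longest annotated transcript and averaged over the 6 libraries, the order ran from the constitutive HSP70 gene Hspa8 at 355 (range 285 to 437) through Hspd1 at 192 (158 to 258) and Hsp90aa1 at 89.3 (66.2 to 138) to Dnaja1 at 42.8 (34.9 to 48.7). The ranges of these 4 genes did not overlap with each other or with those below. The next 4, Hsph1 at 8.55, Hspb1 at 8.02, Dnajb1 at 6.96 and Hspa1b at 6.27, had overlapping ranges and could not be ordered beyond their spread. Hsf1 followed at 3.92 (3.43 to 4.72), within the range of Hspa1b, and Hspa1a was last at 1.44 (0.883 to 2.57). Of the 75-base stretches of their transcripts, 61.7% for Hspa1a, 55.8% for Hspa1b and 46.4% for Hspb1 also occur in other genes. The share was 0% for Hsf1, Hsph1 and Dnajb1. How reads from shared stretches were counted is not given, so the order among these genes is uncertain. Hspa8, Hspd1, Hsp90aa1 and Dnaja1 thus stood at higher levels per length than the inducible HSP70 pair in every library of both groups. The authors' FPKM put Hspd1 (mean 166) above Hspa8 (mean 124), and the gene lengths that these FPKM values imply were 0.644 to 2.88 times the longest transcript, so the order of these 2 genes depends on the length used.

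To show what the members carry in front of their start sites, the RefSeq promoters (GRCm38.p6) were searched in the 250 bases before each start for 2 neighbouring heat shock units in opposite orientation, GAANNTTC and TTCNNGAA, each of which reads the same on both strands and which overlap in longer arrays. Of the 10 members, 7 had a promoter entry (Hsf1, Hspa8 and Hsp90aa1 had none) and 6 of the 7 held such a motif in at least 1 window, beside 14.5% of all 27025 genes with an entry. Hspd1 was the 1 member with a run of at least 3 alternating units (containing GAANNTTC followed by NNGAA, or TTCNNGAA followed by NNTTC), which 0.514% of all genes held. A match describes these letters only. The stretches that follow are shown so that the motif context of the members can be compared, they run 5′ to 3′ on the strand of the gene, and capitals mark the motif.
Hspa1a, chr17:34972233-34972280, minus strand, motif 104 to 97 bases before the start: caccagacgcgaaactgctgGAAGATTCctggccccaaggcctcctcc
Hspa1b, chr17:34959315-34959362, minus strand, motif 104 to 97 bases before the start: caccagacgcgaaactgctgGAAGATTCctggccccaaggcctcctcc
Hsph1, chr5:149636351-149636380, minus strand, within an annotated Hsph1 exon: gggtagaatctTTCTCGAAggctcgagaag
Hspb1, chr5:135887782-135887849, plus strand, 117 to 90 bases before the start, outside any annotated exon: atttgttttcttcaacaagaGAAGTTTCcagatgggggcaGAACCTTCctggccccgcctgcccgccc
Dnaja1, chr4:40722333-40722362, plus strand, within an exon of Dnaja1 and Gm6297: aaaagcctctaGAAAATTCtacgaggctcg
Hspd1, chr1:55088053-55088082, minus strand, before an alternative start and within an exon of Hspd1: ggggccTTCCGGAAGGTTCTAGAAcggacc

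The printed stretches of Hspa1a and Hspa1b were identical, and their whole windows of 300 bases differed at 4 positions. Hspb1 held 2 separate motifs, whereas the 3 motifs of Hspd1 overlapped in a single run. That run also lay 89 to 72 bases before the start of the neighbouring gene Hspe1, which encodes the partner chaperonin of HSPD1 and is read from the opposite strand. Dnajb1 held no match in either of its windows.

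Hsf1 (ENSMUSG00000022556, chr15:76477422-76501913, plus strand) encodes the regulator of the response. It had 11.5, 12.7 and 14.8 CPM in FOXA2f/f replicates 1, 2 and 4 and 11.3, 10.7 and 12.6 CPM in FOXA2H-KO replicates 1, 2 and 4. The groups overlapped, and Hsf1 was the member with the narrowest spread among the controls, where its SD on the log2 scale exceeded that of 27.3% of all genes. The means were 13.0 ± 1.67 and 11.5 ± 0.972 CPM (SD, n = 3), a log2 fold change of −0.17 (SE 0.16, edgeR adjusted p = 0.983).

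The inducible HSP70 genes Hspa1a (ENSMUSG00000091971, chr17:34969190-34972156) and Hspa1b (ENSMUSG00000090877, chr17:34956436-34959238) lie beside each other on the minus strand and encode near-identical proteins that bind unfolded stretches. Hspa1a had 2.62, 5.59 and 7.63 CPM in FOXA2f/f and 3.46, 3.29 and 3.01 CPM in FOXA2H-KO (replicates 1, 2 and 4, an order kept for all values that follow). Hspa1b had 6.74, 31.0 and 24.3 CPM in FOXA2f/f and 16.5, 13.6 and 13.5 CPM in FOXA2H-KO. For both genes all 3 FOXA2H-KO libraries fell between the lowest control, replicate 1, and the next control above it. The highest control exceeded the lowest 4.59-fold for Hspa1b and 2.91-fold for Hspa1a, whereas the largest ratio between FOXA2H-KO libraries for any member but Hspb1 was 1.33. The log2 fold change was −0.70 for Hspa1a (SE 0.37, edgeR adjusted p = 0.952) and −0.51 for Hspa1b (SE 0.47, edgeR adjusted p = 0.983). Of the 75-base words of Hspa1a (every stretch of that length in its exons), 52.7% also occur in Hspa1b. A read that lies wholly within such a stretch matches both genes of the pair, and how the counting treated such reads is not given. The level of each gene and the split between them are therefore uncertain. Added together, the pair had 9.36, 36.6 and 31.9 CPM in FOXA2f/f and 19.9, 16.8 and 16.5 CPM in FOXA2H-KO, with all FOXA2H-KO libraries again between control replicate 1 and the other controls and a log2 fold change of −0.55 (edgeR unadjusted p = 0.243). Without FOXA2f/f replicate 2, the log2 fold change was −0.66 for Hspa1a and −0.10 for Hspa1b.

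Hspa8 (ENSMUSG00000015656, chr9:40800984-40810087, plus strand), the constitutive HSP70 that folds new proteins and uncoats clathrin vesicles, had 900 CPM in FOXA2f/f replicate 1, 1381 in replicate 2 and 1265 in replicate 4. In FOXA2H-KO it had 1001, 1184 and 1005 CPM. Replicate 1 of the controls was again the lowest library and the groups overlapped. Its log2 fold change was −0.15 (SE 0.22, edgeR adjusted p = 0.983) and −0.02 without FOXA2f/f replicate 2, and 33% of its 75-base words also occur in other genes, most of them in the copy Gm15459.

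Partners of different kinds adjust the HSP70 cycle. The J-domain proteins DNAJB1 and DNAJA1 deliver clients to HSP70 and stimulate its ATPase, and HSPH1 (HSP110) exchanges its nucleotide. Hsph1 (ENSMUSG00000029657, chr5:149614287-149636376, minus strand) had 16.2, 66.7 and 54.4 CPM in FOXA2f/f and 39.1, 38.5 and 29.5 CPM in FOXA2H-KO. As for Hspa1b, the deletion libraries all lay between control replicate 1 and the other controls, and the highest control exceeded the lowest 4.13-fold. Its log2 fold change was −0.36 (SE 0.44, edgeR adjusted p = 0.983) and turned to 0.02 when FOXA2f/f replicate 2 was left out.

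Dnajb1 (ENSMUSG00000005483, chr8:83608193-83612653, plus strand) had 15.6, 26.5 and 27.6 CPM in FOXA2f/f and 17.0, 19.0 and 19.5 CPM in FOXA2H-KO, the same arrangement with a smaller range. Its log2 fold change was −0.33 (SE 0.22, edgeR adjusted p = 0.983) and −0.22 without FOXA2f/f replicate 2. Dnaja1 (ENSMUSG00000028410, chr4:40722150-40737149, plus strand) differed in direction from Dnajb1. It had 196, 273 and 208 CPM in FOXA2f/f and 244, 274 and 248 CPM in FOXA2H-KO, a log2 fold change of 0.18 (SE 0.17, edgeR adjusted p = 0.983). FOXA2f/f replicate 2 lay with the FOXA2H-KO libraries, and without it the log2 fold change was 0.34 (edgeR unadjusted p = 0.0423, adjusted p = 0.841). Where CPM used library size alone, the groups of Dnaja1 did not overlap. Of its exon bases, 10.8% overlap other annotated genes.

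Hsp90aa1 (ENSMUSG00000021270, chr12:110690605-110702728, minus strand), the inducible HSP90 that matures kinases and steroid receptors, had 217, 452 and 234 CPM in FOXA2f/f and 253, 305 and 296 CPM in FOXA2H-KO. FOXA2f/f replicate 2 was far above the other 5 libraries, and the other 2 controls were the lowest of all. The log2 fold change was −0.08 (SE 0.29, edgeR adjusted p = 0.993) with all libraries and 0.34 without FOXA2f/f replicate 2. With all libraries kept it was 0.06 with library size alone and 0.12 with FPKM. Its direction thus depended on that library and on the scaling. Hspd1 (ENSMUSG00000025980, chr1:55077835-55088243, minus strand), which encloses proteins imported into mitochondria, had 456, 626 and 382 CPM in FOXA2f/f and 409, 455 and 459 CPM in FOXA2H-KO. It too was highest in FOXA2f/f replicate 2, and its log2 fold change went from −0.15 (SE 0.21, edgeR adjusted p = 0.983) to 0.07 without it. Of the 75-base words, 42.8% for Hsp90aa1 and 31% for Hspd1 occur in other genes, mostly in Gm12346 and Hspd1-ps3.

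Hspb1 (ENSMUSG00000004951, chr5:135887919-135889563, plus strand) encodes HSP25, the mouse form of HSP27, a small heat shock protein that holds unfolded proteins without ATP and binds actin. It had 2.96, 5.70 and 5.18 CPM in FOXA2f/f (counts of 69, 104 and 163) and 14.1, 7.14 and 9.71 CPM in FOXA2H-KO (counts of 382, 178 and 210). Every FOXA2H-KO library was above every control library. The means were 4.62 ± 1.45 and 10.3 ± 3.49 CPM (SD, n = 3), a 2.23-fold difference with a log2 fold change of 1.16 (SE 0.33). This did not pass the test over all genes (edgeR quasi-likelihood, unadjusted p = 0.00885, adjusted p = 0.716), and the exact permutation test of the log2 CPM gave p = 0.1, the smallest that 3 libraries against 3 allow. The log2 fold change stayed between 0.87 and 1.37 when single libraries were left out and was above 0 in 15 of 15 alternatives, with an adjusted p from 0.118 (DESeq2) to 1. Of its 75-base words, 46.4% occur in the pseudogene Hsp25-ps1, which had 0 counts in each library.

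Markers of bile duct cells had values in the same direction as Hspb1. All 5 tested markers of the cholangiocyte list had a log2 fold change above 0, with a median of 0.91, and none passed the adjusted threshold. Of the 5, 2 had an unadjusted p under 0.05 in the same fit, beside 5.17% of all genes. With FOXA2f/f replicate 2 left out, the median was 0.76 and none of the 5 had an unadjusted p under 0.05. The summed CPM of the list was 367, 174 and 231 in FOXA2f/f and 708, 252 and 588 in FOXA2H-KO (exact two-sided permutation p = 0.2). Spp1 alone made up most of each sum, with 353, 164 and 222 CPM in FOXA2f/f and 687, 241 and 573 CPM in FOXA2H-KO. The sum therefore describes Spp1 rather than the list. Krt19, a keratin of bile ducts singled out after its values were seen, had 1.42, 0.987 and 1.14 CPM in FOXA2f/f and 3.38, 1.44 and 1.85 CPM in FOXA2H-KO. In the FOXA2H-KO libraries Hspb1 and Krt19 had the same order, replicate 1 over replicate 4 over replicate 2, and in the FOXA2f/f libraries the reverse held, with Hspb1 lowest and Krt19 highest in replicate 1. Sox9 did not share this order, with 8.08, 7.62 and 4.1 CPM in FOXA2f/f and 8.39, 5.01 and 8.74 CPM in FOXA2H-KO. In bulk RNA, more cells of a type and more RNA per cell cannot be told apart, and the part of bile duct cells in the Hspb1 difference was not tested.

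**Figure D2:**
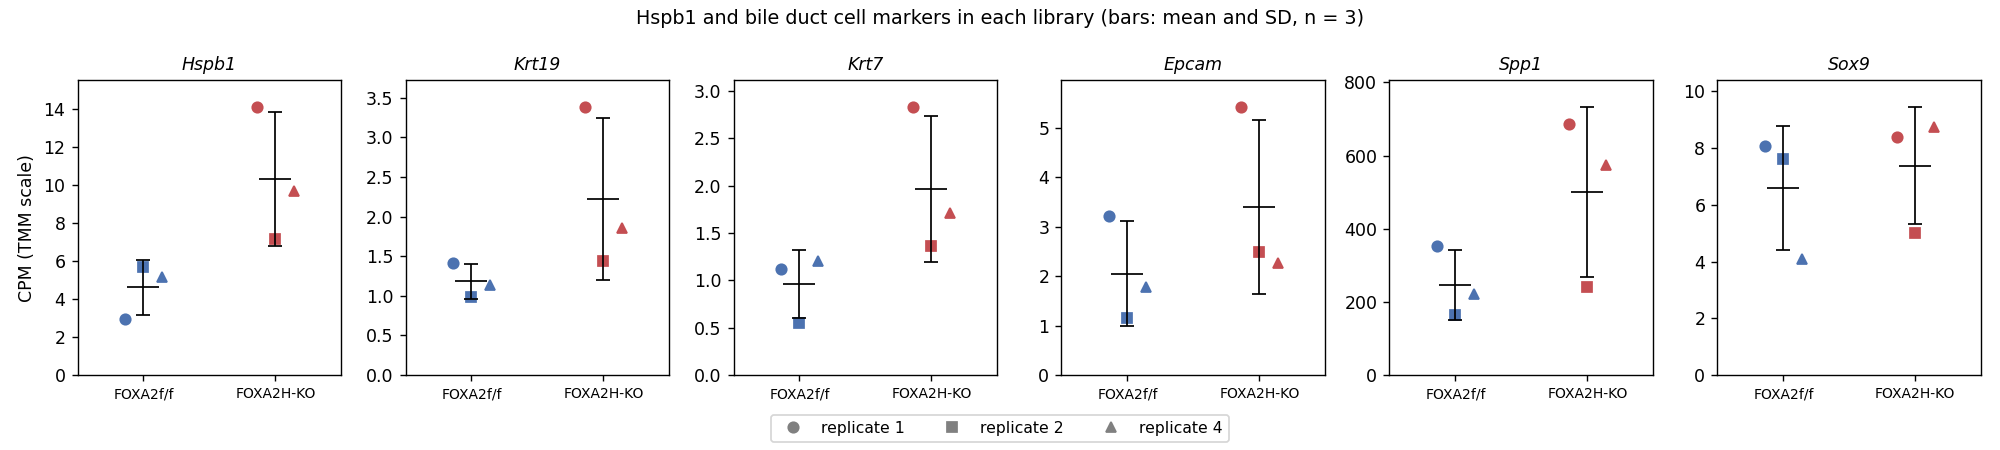
CPM on the TMM scale (vertical axes, linear and starting at 0) of Hspb1 and of the bile duct markers Krt19, Krt7, Epcam, Spp1 and Sox9 (the 5 tested markers of the list) in each library, with the mean and SD in black and the replicate number given by the symbol. FOXA2H-KO replicate 1 is the highest library for each gene but Sox9, and the groups of Hspb1, Krt19 and Krt7 do not overlap, as for 10.5% of all genes.

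The members other than Hspb1 varied more among the control libraries than among the deletion libraries. The SD of log2 CPM was larger in FOXA2f/f than in FOXA2H-KO for 10 of 10 members, beside 71.9% of all genes. For Hspb1 it was nearly equal, at 0.50 in FOXA2f/f and 0.49 in FOXA2H-KO, and its SD in CPM was larger in FOXA2H-KO (3.49 against 1.45). Its median over the members was 0.48 in FOXA2f/f and 0.13 in FOXA2H-KO, where all genes had 0.29 and 0.18. Among the controls, the SD of Hspa1b exceeded that of 96.7% of all genes, that of Hsph1 exceeded 95.8% and that of Hspa1a exceeded 86.9%. These are descriptions of 3 libraries per group, and a difference in spread was not tested.

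FOXA2f/f replicate 1 was the lowest of the 6 libraries for 8 of 10 members, beside 11.8% of all genes. With library size alone in place of TMM factors it was the lowest for 10 of 10, beside 22.9% of all genes. Averaged over the members, the log2 CPM of each gene against its own mean was −0.56, 0.42 and 0.19 in FOXA2f/f replicates 1, 2 and 4 and 0.02, −0.02 and −0.04 in FOXA2H-KO. The 3 FOXA2H-KO libraries thus sat at the middle of a range whose ends were both control libraries. Hspa1b and Hsph1, on different chromosomes, had almost the same profile in the controls, with values of −1.21, 0.97 and 0.62 for Hspa1b and of −1.20, 0.85 and 0.55 for Hsph1. Hspa1a, Dnajb1 and Hspa8 were also low in replicate 1 and high in both other controls. Hsp90aa1, Dnaja1 and Hspd1 were instead high in control replicate 2 and low in control replicate 4, so the members fell into different arrangements there.

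**Figure D3:**
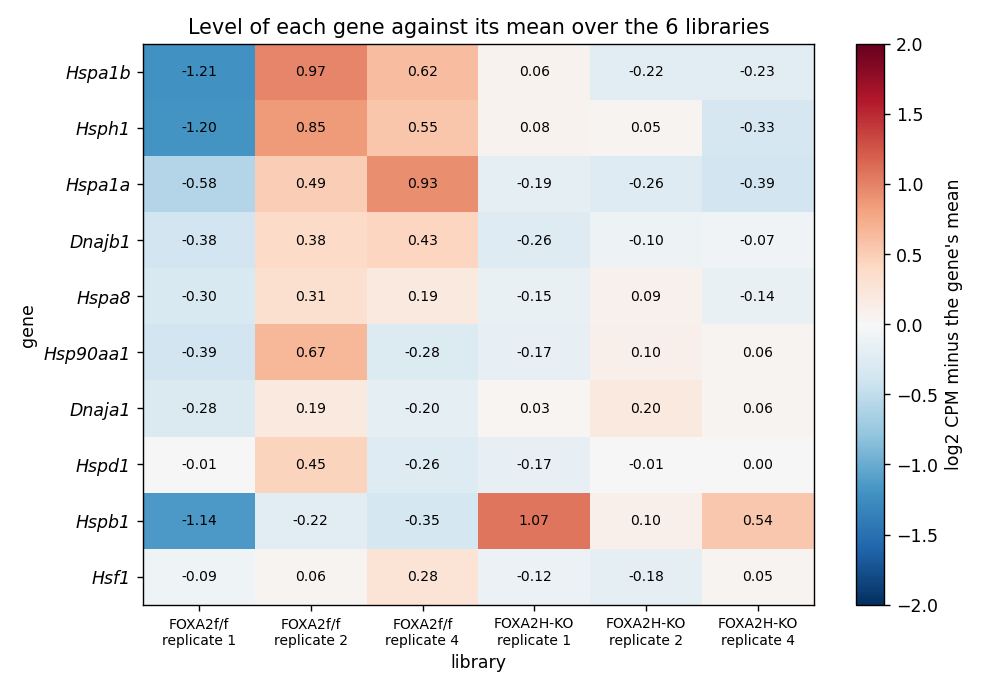
Log2 CPM of each heat shock gene minus its mean over the 6 libraries, one row per gene and one column per library, from blue (below the mean) to red (above). FOXA2f/f replicate 1 is below the mean for all 10 genes, down to −1.21 for Hspa1b, and the FOXA2H-KO libraries stay near 0 for most genes other than Hspb1.

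Without FOXA2f/f replicate 1, 5 members had an unadjusted p under 0.05 in the edgeR quasi-likelihood fit, beside 4.10% of all genes. Of these, 4 were lower in FOXA2H-KO, with log2 fold changes of −1.01 for Hspa1a, −0.91 for Hspa1b, −0.75 for Hsph1 and −0.53 for Dnajb1, and Hspb1 was higher at 0.94. The edgeR adjusted p lay between 0.931 and 1 for the 5 members, so none was called there either. Without FOXA2f/f replicate 2, the same count was 2 (Hspb1 and Dnaja1, both higher), beside 5.59% of all genes. The size of the difference for the inducible genes therefore depended on which control library was included.

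**Figure D4:**
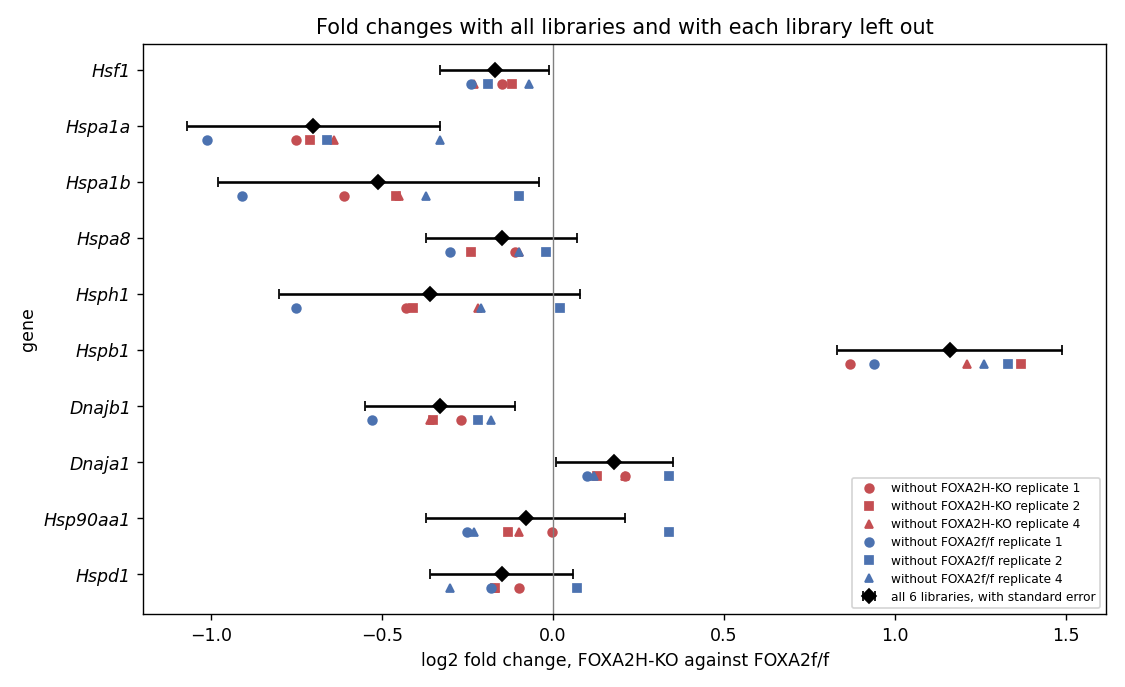
Log2 fold change of FOXA2H-KO against FOXA2f/f (horizontal axis) for each heat shock gene, with all 6 libraries (black diamonds, bars give the standard error) and with each library left out (coloured symbols). Hspb1 stays at or above 0.87, and Hsp90aa1, Hsph1 and Hspd1 lie on both sides of 0.

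Other genes of the chaperone network, listed by role, were read from the same fit, and 0 genes of the chaperone and early gene lists described here were called by the edgeR quasi-likelihood test, by DESeq2 or by the edgeR exact test. Of the 19 tested HSF1-inducible chaperones and cochaperones outside the 10 members, 13 were below 0 and 6 above, with a median log2 fold change of −0.05 and none with an unadjusted p under 0.05. The smallest p-values of that list belonged to Bag3, a cochaperone that links HSP70 to autophagy, at −0.53 (SE 0.23, edgeR adjusted p = 0.941), and to Dedd2 at −0.33 (SE 0.15, edgeR adjusted p = 0.941). Both were lower in every FOXA2H-KO library than in any control. Groups did not overlap for these 2 of the 19, beside 10.5% of all genes. FOXA2f/f replicate 1 was the lowest library for 8 of the 19, beside 11.8% of all genes. Replicate 2 was the highest for 12, beside 29.7% of all genes. The mean profile of the list in the controls was −0.22, 0.19 and 0.07. The direction of this profile followed that of the members at a smaller size. When FOXA2f/f replicate 2 was left out, 12 of the 19 were above 0 and the median was 0.07. An unadjusted p under 0.05 was then found for 2 of the 19, beside 5.59% of all genes. Hsp90ab1, the constitutive HSP90, named after its values were seen, had 500, 745 and 645 CPM in FOXA2f/f and 614, 578 and 549 CPM in FOXA2H-KO.

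Of the HSF family and its regulators, 4 genes were tested, with a median of −0.04 and none with an unadjusted p under 0.05. The extremes were Hsf4, a second heat shock factor, at −0.36 (SE 0.19) and Ier5, a cofactor of HSF1, at 0.24 (SE 0.24). Of 19 constitutive HSP70 and HSP90 partners, 8 were above 0 and 11 below, with a median of −0.04. Fkbp5, an HSP90 partner in steroid receptor complexes and a glucocorticoid target, was the 1 partner with an unadjusted p under 0.05, beside 5.17% of all genes. It had 73.6, 60.1 and 172 CPM in FOXA2f/f and 150, 210 and 308 CPM in FOXA2H-KO, overlapping groups with a log2 fold change of 1.13 (SE 0.43, edgeR unadjusted p = 0.0318, adjusted p = 0.916). The partner with the next smallest p, the J-domain protein gene Dnajc7, had a log2 fold change of 0.16 (SE 0.12). With FOXA2f/f replicate 2 left out, the median was −0.03 for the HSF family and 0.11 for the partners, with 14 of 19 partners above 0.

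The 8 subunits of TRiC, the cytosolic chaperonin that folds actin and tubulin, were all below 0 but by no more than 0.15, the log2 value being −0.15 (SE 0.14) for Cct8 and −0.14 (SE 0.14) for Cct7. Of 10 mitochondrial chaperones and proteases, 8 were below 0 and none had an unadjusted p under 0.05. The median was −0.10, with Clpx at 0.29 (SE 0.18) and the protease Lonp1 at −0.28 (SE 0.14). Of 14 chaperones of the endoplasmic reticulum, which are controlled by the unfolded protein response rather than HSF1, 13 were below 0, with a median of −0.35. Sdf2l1 at −0.51 (SE 0.21, edgeR unadjusted p = 0.0421, adjusted p = 0.941) and Pdia6 at −0.60 (SE 0.26, edgeR adjusted p = 0.941) had the smallest p-values. They were the 2 of the 14 with non-overlapping groups, beside 10.5% of all genes. FOXA2f/f replicate 2 was the highest library for 13 of the 14, beside 29.7% of all genes. Without it the median of this list was −0.03, with 10 of 14 below 0 and none at an unadjusted p under 0.05. The median without it was 0.01 for TRiC and −0.06 for the mitochondrial list.

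**Figure D5:**
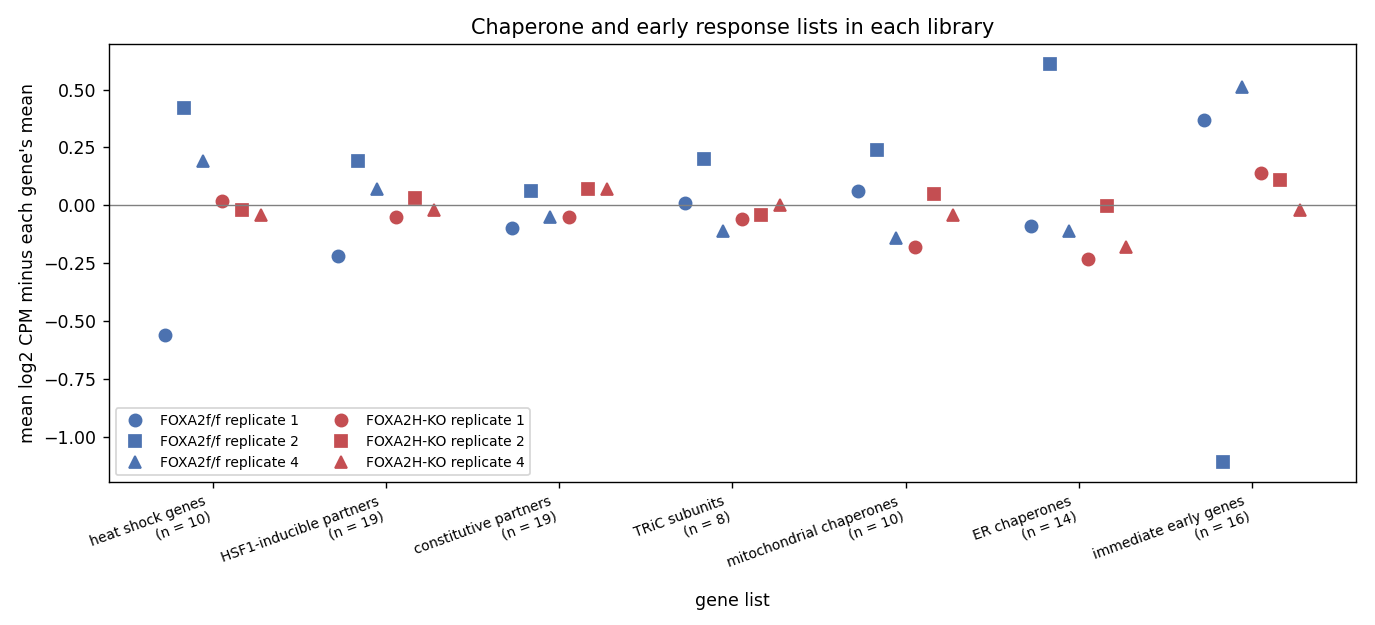
Mean over each gene list of log2 CPM minus the gene's own mean (vertical axis), 1 point per library, with blue for FOXA2f/f, red for FOXA2H-KO and the symbol giving the replicate. The heat shock genes range from −0.56 to 0.42 within the controls, and the immediate early genes reach −1.11 in FOXA2f/f replicate 2.

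Immediate early genes, which are switched on within minutes of stimulation, had another profile. Their mean log2 CPM against each gene's own mean was 0.37, −1.11 and 0.51 in FOXA2f/f and 0.14, 0.11 and −0.02 in FOXA2H-KO. The control library lowest for the heat shock genes was thus above the mean for immediate early genes, and the library lowest for these was on average the highest for the heat shock genes. Of the 16 genes, 9 were above 0 and 7 below in the group comparison, with a median log2 fold change of 0.05. Klf6 had the smallest p in the list, at 0.45 (edgeR unadjusted p = 0.0399), followed by Atf3, a stress-induced transcription factor, at 0.49. Without FOXA2f/f replicate 2, 13 of the 16 were below 0 and the median was −0.27, with 5 genes at an unadjusted p under 0.05, beside 5.59% of all genes. Markers of other cell types also differed among the controls. Summed CPM in FOXA2f/f was 441, 271 and 905 for the endothelial list, 1232, 581 and 2609 for the macrophage list and 144820, 163638 and 117111 for the hepatocyte list. Control replicate 1, where the heat shock genes were lowest, was between the other controls for these 3 lists and for the stellate cell and lymphocyte lists. Its summed CPM was the highest of the controls for the neutrophil list, at 65.7 against 8.55 and 55.9, and for the cholangiocyte list, a sum made up mostly of Spp1. S100a8 (16.5 CPM) and S100a9 (35 CPM) made up most of the neutrophil sum in control replicate 1. Csf3r, Retnlg and Mmp8 of that list were instead higher in control replicate 4. The part of cell composition in the profile of the heat shock genes was not tested.

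The genes whose profile was most like the members' mean profile were ranked by Pearson correlation of log2 CPM over the 6 libraries, among 8287 genes outside the set with at least 10 CPM on average. The first 4 were Zfp652 (r = 0.979), Wdr48 (0.976), Tmem109 (0.968) and Pik3cb (0.968). These points share libraries and scaling, so the values are given as a description with no test. Zfp652 ranged from 33.5 CPM in FOXA2f/f replicate 1 to 47.8 CPM in replicate 2, a far narrower range than that of Hspa1b. Among known partners, Hsp90ab1 ranked 12 (r = 0.944) and Stip1, which bridges HSP70 and HSP90, ranked 31 (r = 0.923), whereas Chordc1 ranked 251 (r = 0.768), Bag3 ranked 1201 (r = 0.504) and Hspe1 ranked 3444 (r = 0.156). These partners were named after their values were seen.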

How the data were processed

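Per the labels, paired-end TruSeq libraries were made from total RNA of primary hepatocytes. The submitters' processing notes name CASAVA 1.8, TopHat2 2.1.0, HTSeq, edgeR and the mm10 build; annotation and strand setting are not given in the sources used here. The authors deposited raw counts and FPKM per gene and library. The combined table held the same values and was not used.

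From the deposited counts, CPM on the TMM scale and quasi-likelihood tests were computed with edgeR 4.0.16 (filterByExpr, group term, 14417 genes, Benjamini-Hochberg adjustment over all of them; called at adjusted p under 0.05 and at least 2-fold). Alternatives used DESeq2 1.42.0, edgeR's exact test, other scalings and filters, and limma 3.58.1 on log2(FPKM + 1) or log2(FPKM + 0.1) of the deposited FPKM. Scripts were tested on simulated data. The common biological coefficient of variation was 25.3%. The 3 libraries of a group were all distinct (chi-square per degree of freedom of 38.8 to 134).

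Positions are from GRCm38. All members, Foxa2, the 2 genes with the smallest unadjusted p of each chaperone, regulator or early gene list, and the 5 genes most like the members' mean profile were to be named, of which 1 is not reported here; other exceptions are stated. Members and lists were chosen with earlier results of these data known. List medians without FOXA2f/f replicate 2 and the library-size count of lowest libraries were added after seeing the data.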

Additional observations from a re-analysis of the deposited data

How the results depend on the processing

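Over 151 values of single members under the alternatives, 142 kept their direction and their side of the threshold, 9 changed sign and 0 became significant. Hsp90aa1 turned positive with library size alone (0.06), with FPKM (0.12 with either pseudocount) and with the replicate block (0.00038), and ran from −0.25 to 0.34 when single libraries were left out. Hspd1 turned positive with FPKM (0.0045 with 0.1 added and 0.0044 with 1 added) and ran from −0.30 to 0.07 with single libraries left out, and Hsph1 from −0.75 to 0.02. The cause was not tested. The number of genes called was 73 with DESeq2, 64 with the exact test, 2 without a filter, 0 with library size alone, 0 with either FPKM pseudocount, 0 with the replicate block, and 0 to 6 with single libraries left out, against 1. The number of members with an unadjusted p under 0.05 ran from 1 to 5 with single libraries left out, 5 being without FOXA2f/f replicate 1 and 2 without FOXA2f/f replicate 2. The number of members whose groups did not overlap was 2 (Hspb1 and Dnaja1) with library size alone and 2 with FPKM. The share of all genes (10.5%) was taken on the TMM scale alone, so these counts have no background beside them. The median over the members was −0.16 and ran from −0.28 (without FOXA2f/f replicate 1) to −0.0038 (without FOXA2f/f replicate 2). The median of all genes tested moved from −0.012 to 0.104 with library size alone.

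No pairing by replicate number was seen: the correlation of deviations between libraries of the same number was −0.0688 for 1, 0.0262 for 2 and −0.226 for 4. Between libraries of different numbers it ran from −0.188 to 0.253. With 3 libraries per group, these values cannot decide whether the numbers mark pairs. With the number as a replicate block, Hspb1 had a log2 fold change of 1.15 (edgeR adjusted p = 0.897). With 3 libraries per group, differences of the size seen here for the other members could not be told from the spread.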
